A study of Homo sapiens with 6 samples.

Results

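The transcripts of 9 genes that make, restrain and oxidise polyamines were followed in a human colorectal cancer line with and without added CDO1. The genes were chosen by name for their place in the pathway, and they are 9 of the 27134 genes in the deposited table. The rule that picks them uses no measured value, but earlier results of these data were known when it was set. ODC1, AMD1, SRM and SMS encode the enzymes of synthesis, OAZ1 and AZIN1 the protein regulators of the first enzyme, and SAT1, SMOX and PAOX the enzymes of acetylation and oxidation. RNA sequencing was done on KM12 cells, an established line, of which 3 libraries were from cells labelled CDO1-overexpression and 3 from mock cells. CDO1 is cysteine dioxygenase type 1, which turns cysteine into cysteine sulfinate. Cells of both groups were at passages 10 to 15, and the labels name neither the vector nor a clone for either group. Separate cultures are not stated for the libraries of a group, so each p-value below measures the spread between these libraries, part of which may be technical.

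Polyamines are small cations that bind RNA and DNA and are needed by dividing cells, and intestinal epithelium is known for its high demand for them. Ornithine decarboxylase (ODC1) makes putrescine, and the aminopropyl groups that turn putrescine into spermidine and then spermine come from S-adenosylmethionine after AMD1 has decarboxylated it. Antizyme (OAZ1) binds ornithine decarboxylase and sends it to the proteasome, the antizyme inhibitor (AZIN1) takes antizyme away, and the way back from spermine runs through SAT1, PAOX and SMOX, of which the oxidases release hydrogen peroxide. Much of this control acts on translation and protein stability, which RNA counts do not measure.

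With CDO1, the SMOX transcript was 1.56-fold lower, SAT1 was 1.30-fold lower and AZIN1 fell by 16.8%, while OAZ1 was 1.14-fold higher. Smaller differences passed the same test in ODC1 (1.11-fold lower) and AMD1 (1.13-fold higher). SRM, SMS and PAOX did not pass. All 9 members were tested, 2 were higher and 4 were lower in limma at an adjusted p of 0.05. Against this, 24.0% of the 21775 genes tested passed, 11.3% higher and 12.7% lower, and among genes with a mean of at least 100 normalised counts, which 8 members have, 36.3% passed. The median log2 fold change was -0.15 over the members and -0.0035 over all genes tested. The 2 groups did not overlap in 5 members, and they did not in 37.1% of genes tested. In bulk RNA, fewer cells of a kind and less RNA per cell cannot be told apart.

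**Figure D1:**
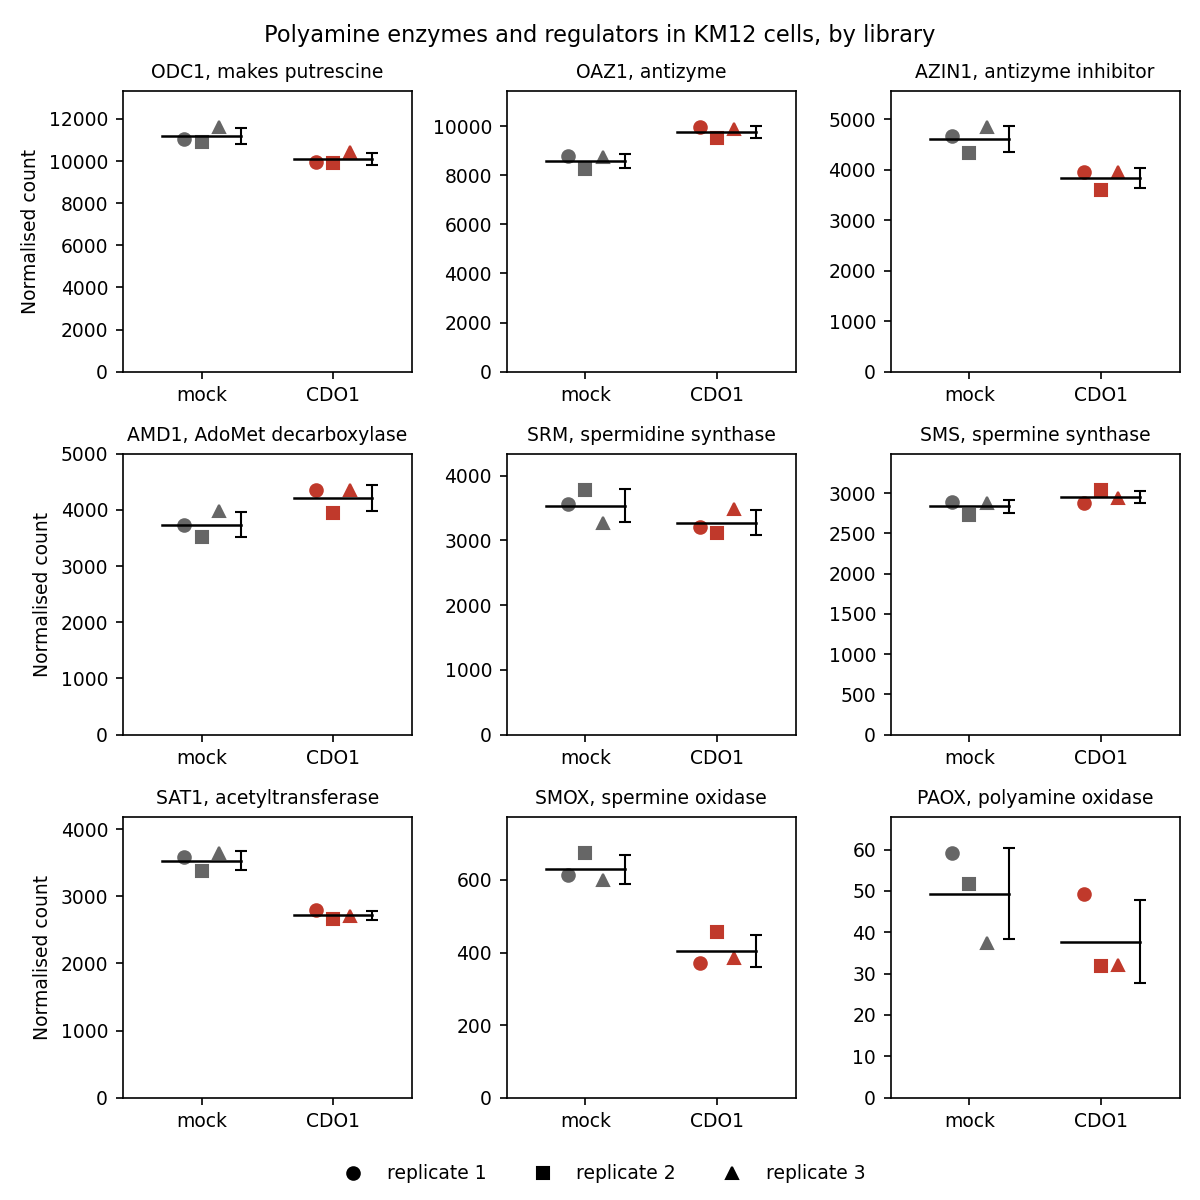
Normalised counts of the 9 members, 1 panel per gene with its own vertical axis, from 0, with a point shape for each replicate of mock and CDO1 overexpression, a line at the mean and a bar of 1 SD either way (n = 3). The groups lie apart for ODC1, OAZ1, AZIN1, SAT1 and SMOX and overlap for AMD1, SRM, SMS and PAOX.

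Reads assigned to genes numbered 17516640 to 22198173 per library. CDO1 stood at 2484, 2336 and 2333 normalised counts in the CDO1 libraries, and in mock at 68.1, from 76 reads, in replicate 1 and at 0 in replicates 2 and 3, where 0 reads allow up to 2.93 and 3.39 for counting error alone. The log2 fold change of CDO1 was 9.18 in limma (adjusted p = 2.74e-07) and 6.71 in DESeq2 (0.0241). With 0.5 or 5 added to each count before the log, in place of 1, the limma value was 9.85 or 7.61. The authors' deposited table gives CDO1 a log2 fold change of 0.09 and an adjusted p of 0.416, far from these counts, and the reason was not tested. All 7 colorectal epithelial markers looked for were present, and their summed count was 164740 to 176450 with CDO1 and 115860 to 120660 in mock. KRT8 made up most of that sum. Each of the 7 was higher with CDO1, without overlap, and passed in limma. The rise ran from 1.16-fold for EPCAM to 1.95-fold for KRT20 and 3.15-fold for VIL1. Of 9 markers of leukocytes, fibroblasts and endothelium, 4 were measured (COL1A1, PDGFRB, CDH5 and VWF), with a sum of 165 to 211 with CDO1 and 232 to 328 in mock, and CDH5 was at 0 in 3 libraries. Of these 4, COL1A1 fell from 225 ± 37.3 to 103 ± 9.99 (SD, n = 3), and the others did not pass in limma: VWF stood at 43.5 ± 12.7 with CDO1 against 28.5 ± 4.98 in mock (SD, n = 3), without overlap, and PDGFRB at 39.5 ± 0.968 against 35.2 ± 21.1 (SD, n = 3). The endothelial sum alone was 34.9 to 65.7 with CDO1 and 24.4 to 35.0 in mock. The part of these marker shifts in the member results was not tested.

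ODC1 and SRM are textbook targets of MYC, which with MAX binds the E-box. Of the 6 members with a RefSeq promoter window (250 bases before to 50 after a listed start, GRCh38.p14), these 2 were the ones that held the E-box letters CACGTG, which read the same on both strands. Such a window holds them in 7.26% of 35116 cases. That share is per window and not per gene, and the 6 members have 9 windows. The stretches around the matches, with 15 bases on either side, are printed with the E-box letters in capitals.
ODC1: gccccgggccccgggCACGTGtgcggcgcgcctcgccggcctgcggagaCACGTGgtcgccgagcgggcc
SRM: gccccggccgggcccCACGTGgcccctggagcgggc
The ODC1 stretch is chr2:10447987-10448056 on the minus strand. Its matches begin at positions -29 and 6 of the gene's second listed start, with 34 bases from one to the next, and that start lies 315 bases into the gene from the other. In GENCODE release 29 the stretch is within 2 of the 4 ODC1 transcripts, in an intron of both. The SRM stretch is chr1:11060197-11060232 on the minus strand, outside all 6 annotated SRM transcripts, and its match begins at position -199. The core letters of an antioxidant response element, TGACNNNGC on either strand, occurred in 1 member, in the other ODC1 window (13.3% of all windows hold them). A match is a stretch of letters and no measurement of binding, and a link between the matches and the members' values was not tested.

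ODC1 (ENSG00000115758, chromosome 2, 10439968 to 10448504, minus strand), the entry to the pathway, had 9943.5, 9914.4 and 10419.4 normalised counts in the CDO1 libraries and 11051.7, 10928.1 and 11610.4 in mock. Every CDO1 library lay below every mock library, by a small margin next to the level. The mean was 10092 ± 284 against 11197 ± 364 (SD, n = 3), a log2 fold change of -0.15 ± 0.05 (SE; 95% interval -0.25 to -0.05; adjusted p = 0.0313 in limma). The call did not hold without CDO1 replicate 1, 2 or 3 or without mock replicate 1 or 3, when the adjusted p rose to as much as 0.124 with the value between -0.17 and -0.12.

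OAZ1 (ENSG00000104904, chromosome 19, 2269509 to 2273490, plus strand), the antizyme, went the other way. It had 9962.3, 9503.9 and 9869.3 normalised counts with CDO1 and 8772.7, 8249.0 and 8744.8 in mock. All CDO1 libraries were above all mock libraries. The mean rose 13.9%, from 8589 ± 295 to 9778 ± 242 (SD, n = 3), with a log2 fold change of 0.19 ± 0.05 (SE; 95% interval 0.08 to 0.29; adjusted p = 0.00770 in limma). OAZ1 is rich in GC (61.2% of its longest transcript), and with each library's trend with GC content removed the value was 0.30. It was 0.17 without CDO1 replicate 1 (adjusted p = 0.0504). Antizyme protein is made by a frameshift during translation, a step these counts do not show.

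AZIN1 (ENSG00000155096) encodes a protein that resembles ornithine decarboxylase, lacks its activity and binds antizyme more tightly. Its normalised counts were 3943.3, 3600.8 and 3961.1 with CDO1 and 4659.2, 4323.5 and 4839.6 in mock. The groups were apart, and in both replicate 2 was the lowest library. The mean fell from 4607 ± 262 to 3835 ± 203 (SD, n = 3), a log2 fold change of -0.26 ± 0.06 (SE; 95% interval -0.38 to -0.15; adjusted p = 0.00140 in limma). AZIN1 passed under all 18 alternatives, between -0.31 and -0.22.

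AMD1 (ENSG00000123505, chromosome 6, 110874770 to 110895713, plus strand), the S-adenosylmethionine decarboxylase, stood at 4350.5, 3951.1 and 4345.0 normalised counts with CDO1 and 3722.7, 3516.9 and 3976.5 in mock. CDO1 replicates 1 and 3 were above all mock libraries, and CDO1 replicate 2 was below mock replicate 3. The mean was 4216 ± 229 against 3739 ± 230 (SD, n = 3), a log2 fold change of 0.17 ± 0.06 (SE; 95% interval 0.05 to 0.29; adjusted p = 0.0315 in limma). It no longer passed with libraries scaled to equal totals (adjusted p = 0.0734), or without CDO1 replicate 1 or 3 or mock replicate 1 or 2 (up to 0.150).

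The 2 aminopropyl transferases did not pass. SRM (ENSG00000116649, chromosome 1, 11054584 to 11060024, minus strand), which makes spermidine, had 3214.6, 3116.9 and 3489.1 normalised counts with CDO1 and 3569.5, 3776.3 and 3267.2 in mock. The highest CDO1 library was above the lowest mock library, and both were replicate 3. The log2 fold change was -0.11 ± 0.06 (SE; 95% interval -0.24 to 0.01; adjusted p = 0.204 in limma). SRM has the highest GC content of the members (63.7%), its value was 0.04 with the GC trend removed, and without mock replicate 3 it was -0.17 and passed (adjusted p = 0.0333).

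SMS (ENSG00000102172, chromosome X, 21940573 to 21994835, plus strand), which makes spermine, had 2883.3, 3036.9 and 2940.8 normalised counts with CDO1 and 2888.4, 2734.7 and 2880.3 in mock. Mock replicate 1 lay just above the lowest CDO1 library, and mock replicate 3 just below it. Its log2 fold change was 0.06 ± 0.05 (SE; 95% interval -0.05 to 0.17; adjusted p = 0.460 in limma), so a rise of up to 0.17 or a fall of up to 0.05 on the log2 scale remained within the interval.

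SAT1 (ENSG00000130066, chromosome X, 23783173 to 23786226, plus strand) encodes the acetyltransferase that tags spermidine and spermine for export or oxidation. It had 2788.6, 2656.0 and 2705.7 normalised counts with CDO1 and 3584.7, 3368.6 and 3640.5 in mock. The groups were far apart next to the spread within them. The mean fell by 23.1%, from 3531 ± 144 to 2717 ± 67.0 (SD, n = 3). The log2 fold change was -0.38 ± 0.05 (SE; 95% interval -0.49 to -0.27; adjusted p = 1.36e-05 in limma). It lay between -0.41 and -0.36 under the 18 alternatives and passed in each.

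SMOX (ENSG00000088826, chromosome 20, 4120980 to 4187747, plus strand) encodes spermine oxidase, which turns spermine straight into spermidine. Its normalised counts were 371.7, 455.4 and 384.8 with CDO1 and 613.0, 673.9 and 600.7 in mock. Each mock library was above each CDO1 library, and replicate 2 was the highest of both groups. The mean fell by 35.8%, from 629 ± 39.2 to 404 ± 45.0 (SD, n = 3). Its log2 fold change of -0.64 ± 0.08 (SE; 95% interval -0.82 to -0.47; adjusted p = 6.69e-06 in limma) had the smallest p of the members. The alternatives gave -0.73 to -0.53, all past the threshold.

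PAOX (ENSG00000148832, chromosome 10, 133379234 to 133391694, plus strand) encodes the peroxisomal oxidase that acts on acetylated polyamines. It was scarce, with 29 to 66 reads per library. Its normalised counts were 49.3, 31.7 and 32.1 with CDO1 and 59.1, 51.7 and 37.3 in mock. The groups overlapped through CDO1 replicate 1 and mock replicate 3. The log2 fold change was -0.38 ± 0.23 (SE; 95% interval -0.86 to 0.09; adjusted p = 0.251 in limma). At this depth the interval held both 0 and falls larger than that of SMOX.

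Ratios within a library do not depend on how libraries were scaled. They can still shift with a trend in GC content where 2 members differ in it, as OAZ1 (61.2%) and AZIN1 (42.3%) do. No ratio was taken with that trend removed. Ratios were taken for 9 pairs of members. With 3 libraries a group, an exact two-sided permutation test cannot go below p = 0.1. The ratio of ODC1 to OAZ1 was 0.998, 1.04 and 1.06 with CDO1 and 1.26, 1.33 and 1.33 in mock. All CDO1 libraries were below all mock libraries, with both members contributing, ODC1 by its lower and OAZ1 by its higher count. The means were 1.03 ± 0.0303 and 1.30 ± 0.0384 (SD, n = 3; log2 difference -0.34; exact permutation p = 0.1, 0.225 adjusted over the 9 ratios by Benjamini-Hochberg). That the ratio lay apart follows from ODC1 and OAZ1 each lying apart in opposite directions, as AZIN1 and OAZ1 also do. How often the ratios of other gene pairs lie apart was not computed. Of single genes tested, 37.1% did.

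The ratio of AZIN1 to OAZ1, the inhibitor to the antizyme, was 0.396, 0.379 and 0.401 with CDO1 and 0.531, 0.524 and 0.553 in mock. It had the largest difference of the 9 ratios, -0.45 on the log2 scale, with no overlap (exact permutation p = 0.1, adjusted 0.225). AMD1 to ODC1 was higher with CDO1, at 0.418 ± 0.0195 against 0.334 ± 0.0107 (SD, n = 3; log2 difference 0.32), again with no overlap and the same exact p. The groups were also apart for SAT1 to SRM, at 0.832 ± 0.0493 against 1.00 ± 0.111 (SD, n = 3; log2 difference -0.27).

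In the other 5 ratios the groups overlapped. ODC1 to AZIN1 was 2.63 ± 0.116 against 2.43 ± 0.0832 (SD, n = 3; exact permutation p = 0.2, adjusted 0.3), both members being lower with CDO1. SMS to SRM was 0.905 ± 0.0661 against 0.805 ± 0.0788 (SD, n = 3), with the same exact p. SMOX to SAT1 was 0.149 ± 0.0200 against 0.179 ± 0.0188 (SD, n = 3; exact permutation p = 0.3, adjusted 0.386). The 2 ratios to PAOX, of SMOX (log2 difference -0.26, exact p = 0.6) and of SAT1 (0.01, exact p = 1.0), carry the counting error of that scarce transcript.

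**Figure D2:**
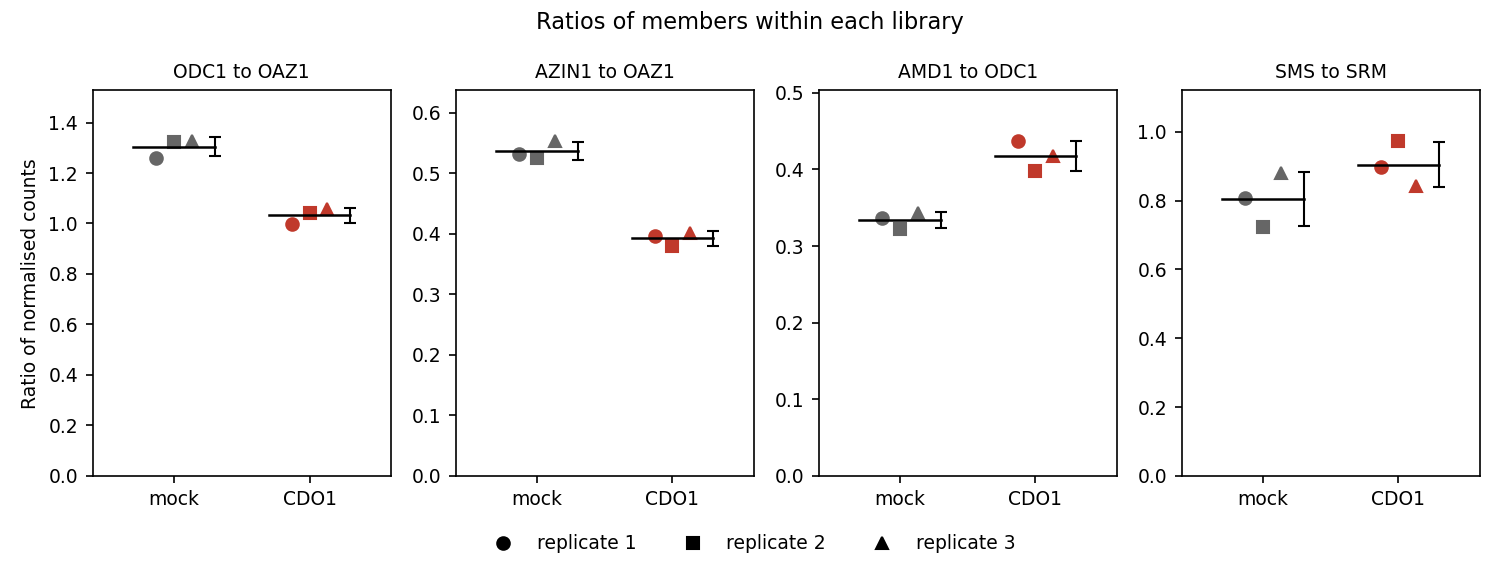
Ratio of the normalised counts of 2 members within each library for 4 of the 9 ratios, on axes from 0, with a point shape for each replicate of the mock and CDO1 groups, a line at the mean and a bar of 1 SD either way. The groups lie apart for ODC1 to OAZ1, AZIN1 to OAZ1 and AMD1 to ODC1, and overlap for SMS to SRM (0.905 with CDO1 and 0.805 in mock on average).

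Levels of different members were compared per kb of annotated exon, on the scale of normalised counts per kb. In mock the order was ODC1 (3773), OAZ1 (2500), SRM (1864), SAT1 (1414), SMS (1312), AZIN1 (717), AMD1 (532), SMOX (214) and PAOX (21.7). With CDO1 it was ODC1 (3400), OAZ1 (2846), SRM (1725), SMS (1367), SAT1 (1088), AMD1 (600), AZIN1 (597), SMOX (137) and PAOX (16.6). SAT1 and SMS had thus traded places, as had AZIN1 and AMD1. The libraries of neighbours in the order did not overlap in either group, apart from AMD1 and AZIN1 with CDO1, whose ranges of 562 to 619 and 560 to 616 overlapped. Exon length here joins the exons of all annotated transcripts of a gene, and which transcripts these cells use was not measured.

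Around the members, 48 genes were listed in 8 groups, of which 47 were measured and 46 tested. Of these 46, 7 were higher, 9 were lower and 30 did not pass (34.8% passed), and their median log2 fold change was 0.03. That share lies between the 24.0% of all genes tested and the 36.3% of genes with a mean of at least 100, and is no result about these genes as a set. The counts for single groups below stand beside the same shares, with 11.3% of all genes tested higher and 12.7% lower. They rest on few genes, and no group was tested as a set.

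The genes that supply arginine and ornithine had 4 of 9 tested higher in limma, and the other 5 did not pass. ASS1, argininosuccinate synthase, rose 1.31-fold, from 3390 ± 57.5 to 4448 ± 110 (SD, n = 3; log2 fold change 0.39; adjusted p = 4.41e-06 in limma). ALDH18A1, which makes the glutamate semialdehyde shared by proline and ornithine synthesis, rose by 0.36 on the log2 scale. AGMAT, annotated as agmatinase, the enzyme that releases putrescine from agmatine, rose 1.64-fold, from 119 ± 1.82 to 196 ± 20.9 (SD, n = 3). The remaining gene that passed, OAT (ornithine aminotransferase, named after its value was seen), rose by 0.20. ASS1, ALDH18A1 and AGMAT passed under all 18 alternatives.

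Methylthioadenosine is the side product of spermidine and spermine synthesis and is salvaged to methionine. In this group 2 of 6 genes fell and 1 rose. MTAP, the phosphorylase of the first step, had 1360.8, 1308.3 and 1284.9 normalised counts with CDO1 and 1968.9, 1791.6 and 1796.5 in mock. MRI1, the isomerase of the second step, had 36.5, 48.2 and 49.6 with CDO1 and 129.9, 136.5 and 118.8 in mock. The groups were far apart in both. MTAP was 1.41-fold lower (log2 fold change -0.49 ± 0.06 (SE), adjusted p = 2.01e-06 in limma) and MRI1 2.87-fold lower (-1.51 ± 0.16 (SE), adjusted p = 4.54e-07), and both passed under all 18 alternatives. ADI1, a dioxygenase near the end of the route, rose by 0.19, a call lost without CDO1 replicate 1 or 3 or mock replicate 1 (adjusted p up to 0.0717 in limma).

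Of the S-adenosylmethionine synthetase genes, the abundant MAT2A and its regulatory partner MAT2B had log2 fold changes of 0.09 and 0.01 and did not pass, and MAT1A, the liver form, fell from 37.6 ± 3.83 to 20.1 ± 4.86 (SD, n = 3). MAT1A had a log2 fold change of -0.89 and passed in limma, but not in DESeq2 (adjusted p = 0.0590) or in the authors' deposited table, where it was -0.51 (adjusted p = 0.0555). Among the paralogs of the regulators, OAZ2, the second antizyme, fell by 0.26 on the log2 scale, from 1825 ± 68.5 to 1525 ± 55.9 (SD, n = 3). AZIN2, the second inhibitor, fell by 0.74, from 103 ± 10.7 to 62.2 ± 14.4 (SD, n = 3). OAZ1 and OAZ2 thus went opposite ways, and AZIN1 and AZIN2 the same way. OAZ3, the testis antizyme, was at 3.28 to 10.8 normalised counts and did not pass. AOC3, a vascular amine oxidase, was 1 of 4 other acetylation and amine oxidase genes tested to fall (log2 fold change -0.59), and SAT2 (-0.13) and AOC2 (-0.33) did not pass. AOC3 no longer passed without CDO1 replicate 3 or mock replicate 1 or 2 (adjusted p up to 0.0809 in limma).

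Of 11 transport genes, 2 were higher: SLC3A2, the heavy chain of several amino acid carriers, by 0.18 on the log2 scale and SLC7A2, a cationic amino acid carrier, by 0.19. The call of SLC3A2 did not hold without CDO1 replicate 2 or mock replicate 1 (adjusted p up to 0.101 in limma), nor that of SLC7A2 with equal library totals (0.0676) or without CDO1 replicate 1 or 3 or mock replicate 1 (up to 0.182). SLC47A1, an organic cation exporter, had 0.41 (adjusted p = 0.0570 in limma). Hypusine is made from spermidine on the translation factor eIF5A. In its group DOHH, the hydroxylase of the second step, fell by 0.32 and EIF5A2, the minor form of the factor, by 0.21. DHPS, which takes the spermidine, had -0.14 and did not pass (adjusted p = 0.106 in limma). The abundant EIF5A, named after its value was seen, had 0.09, higher without overlap, and did not pass (adjusted p = 0.2665 in limma). The longest transcript of DOHH is 67.5% GC, and with the GC trend removed the value of DOHH was -0.10 (adjusted p = 0.149). The call of EIF5A2 did not hold under 8 of the 18 alternatives, among them DESeq2 and each library left out except mock replicate 2.

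MYC, a factor that can bind the E-box with MAX, had 5489.5, 5401.7 and 5460.9 normalised counts with CDO1 and 6172.0, 6209.7 and 5647.4 in mock. The groups did not overlap, but mock replicate 3 was close to the CDO1 libraries. Its log2 fold change was -0.14 ± 0.05 (SE; adjusted p = 0.0537 in limma), just short of the threshold, and it passed in 9 of 18 alternatives, the authors' deposited table among them (adjusted p = 0.0328). MAX had 0.04 and MYCN 0.43 without passing, and MXI1, an antagonist of MYC, fell by 0.25, a call lost without CDO1 replicate 1 (adjusted p = 0.0555 in limma).

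**Figure D3:**
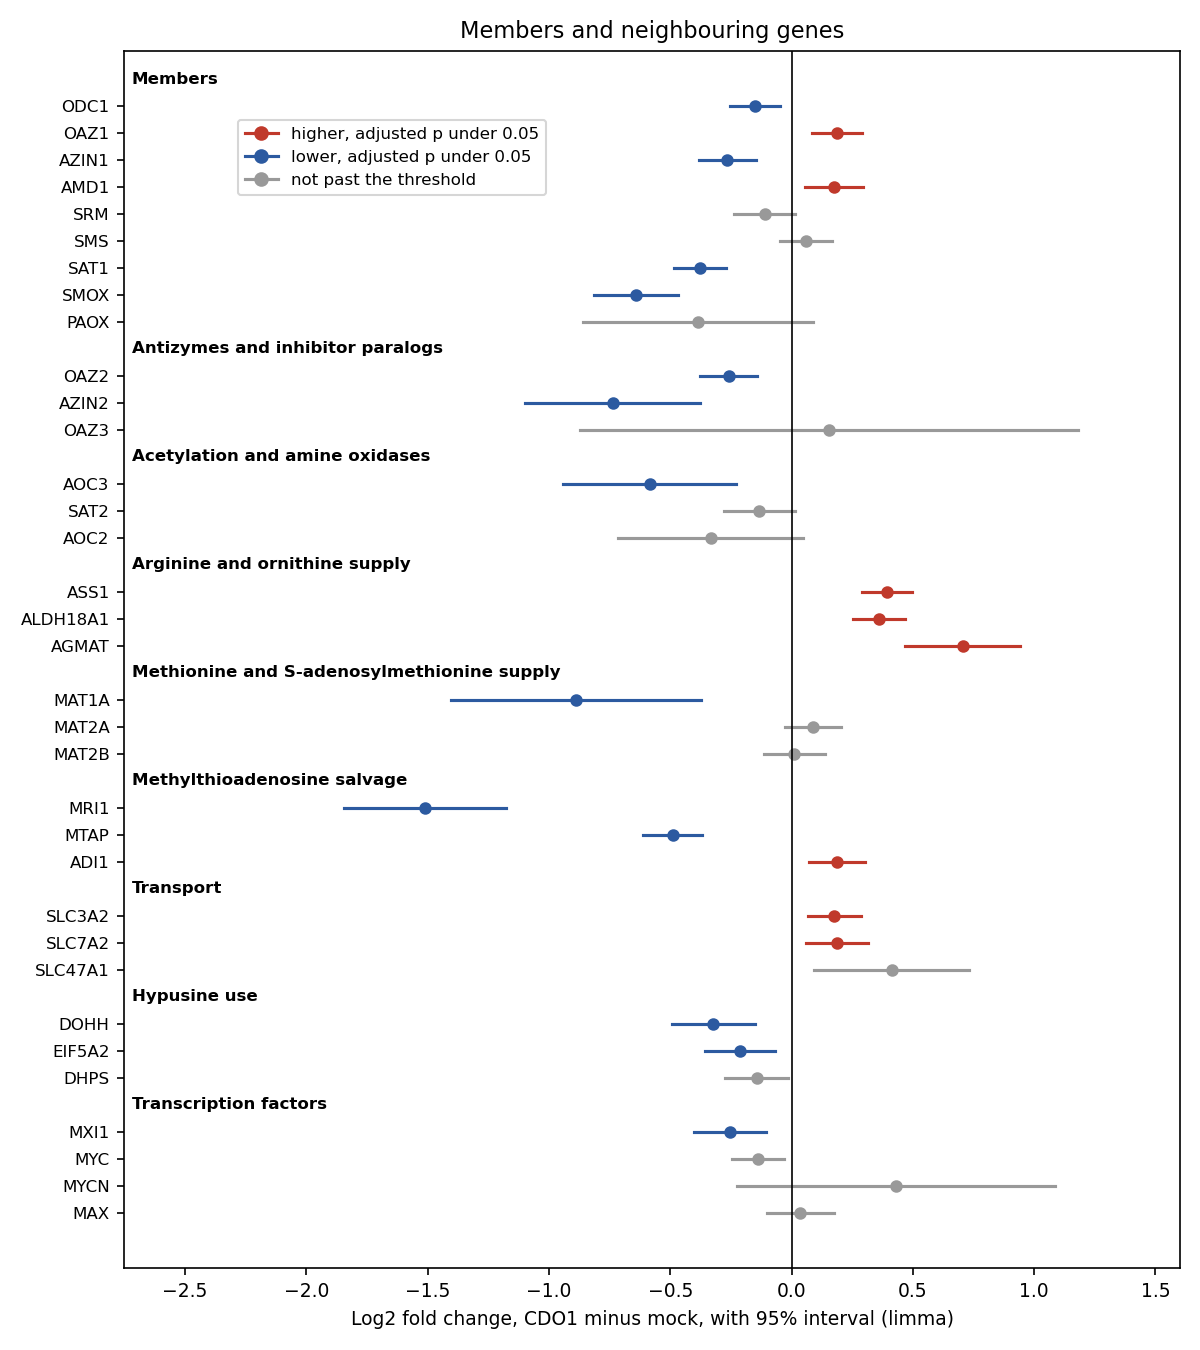
Log2 fold change (CDO1 minus mock, limma on log2 of the normalised count plus 1) with its 95% interval for the 9 members and the named genes of 8 neighbouring groups, except OAT and EIF5A. Genes are coloured by whether they were higher, lower or not past an adjusted p of 0.05. SMOX lies at -0.64 and SAT1 at -0.38 among the members, and MRI1, at -1.51, is the farthest from 0.

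Across the 18 alternatives, AZIN1, SAT1 and SMOX passed in each, OAZ1 in 17, and ODC1 and AMD1 in 12 each. The authors' deposited table, from another test on these libraries, gives log2 fold changes of -0.61 for SMOX, -0.37 for SAT1, -0.26 for AZIN1, 0.18 for OAZ1, 0.17 for AMD1 and -0.15 for ODC1, all with an adjusted p under 0.05.

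**Figure D4:**
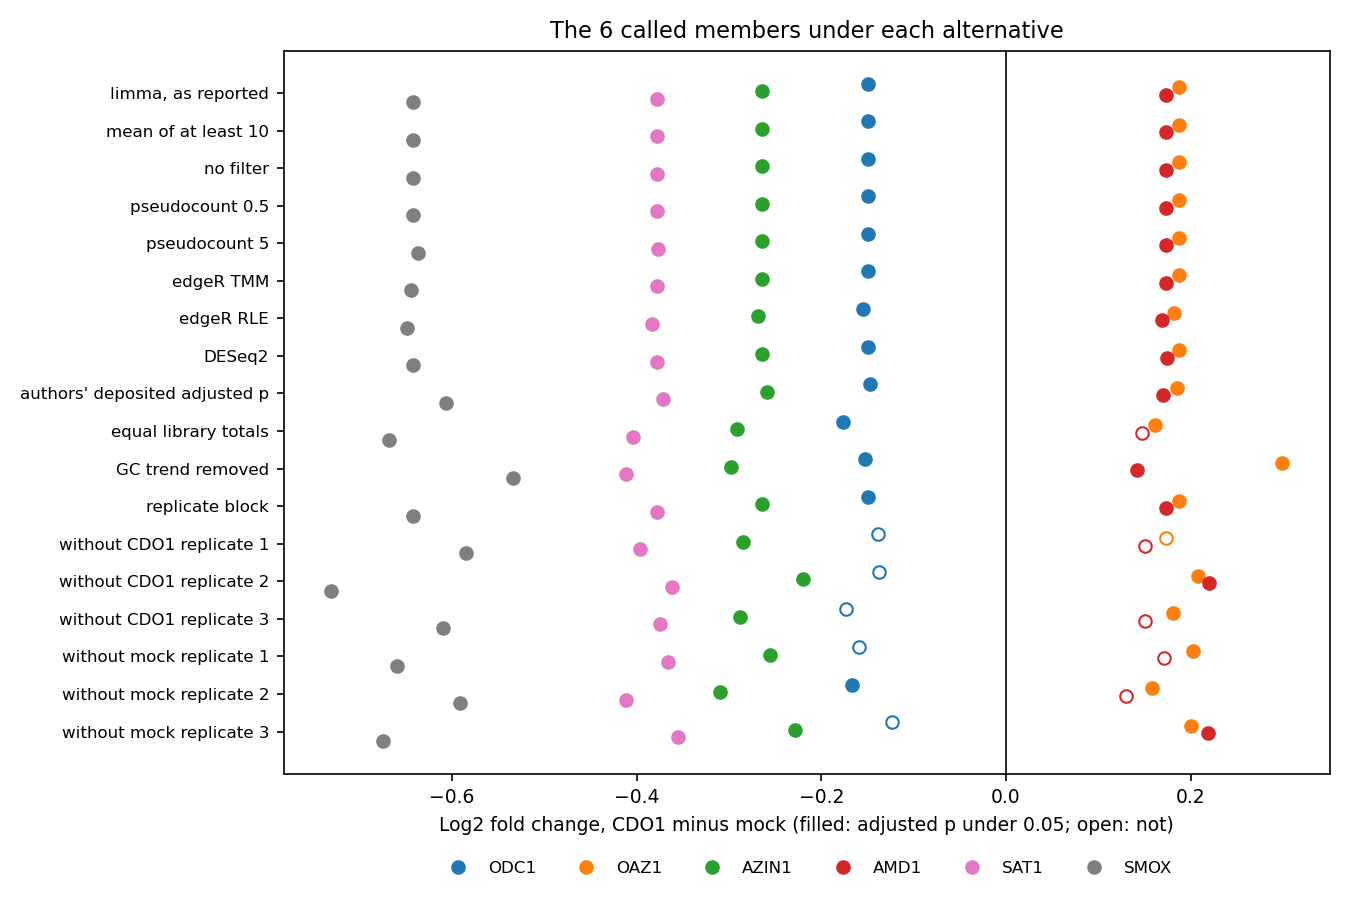
Log2 fold change (CDO1 minus mock) of the 6 members that passed, 1 colour per gene, as reported and under each alternative apart from the stricter adjusted p, 1 setting per row, with open points where the value did not pass. SMOX, SAT1 and AZIN1 stay past the threshold in every row, while ODC1 has open points in 5 of the 6 rows that leave out 1 library (all but mock replicate 2) and AMD1 in 4 of them (all but CDO1 replicate 2 and mock replicate 3).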

How the data were processed

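RNA from 6 KM12 samples was extracted with RNeasy and made into libraries with a NEBNext Ultra RNA kit, per the labels' protocols. The authors used STAR 2.5.1b, DESeq2 1.10.1 and the build GRCh38, per the submitters' processing notes, and for the read counter, annotation and strand setting the sources used here give nothing. Reads of overlapping or antisense genes may therefore not be told apart. The deposited signal columns hold gene counts divided by a size factor, and all values (100%, to within 0.001) were whole multiples of what a single read is worth in their library, which gives 17516640 to 22198173 recovered reads per library. The table also holds the authors' log2 fold change, p-value and adjusted p-value, per the file headers. An adjusted p of 1 there was treated as missing.

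Because the values were normalised, limma 3.58.1 (trend) was fitted to log2 of the value plus 1 for the 21775 genes with a mean of at least 1 in R 4.3.3, comparing the groups, with p-values adjusted over all of them (Benjamini-Hochberg, 0.05). In low genes a fold change on that scale can be smaller than the ratio of group means. It can also be larger where the libraries of a group differ widely, as in mock for CDO1. Printed folds are ratios of group means. edgeR 4.0.16 and DESeq2 1.42.0 were run on the recovered reads as alternatives, and called 5423 and 4296 genes against 5229 in limma. Other alternatives were the filter, the pseudocount, scaling to equal totals, a lowess correction for GC content in each library (span 0.3), a replicate block, leaving out single libraries and a stricter adjusted p of 0.01. The scripts were tested on simulated data.

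Symbols came from a reference name table (26577 of 27134 identifiers), coordinates, exon lengths and GC content from GENCODE release 29 (26742). RefSeq promoter windows (GRCh38.p14) matched 6 of the 9 members. The members and gene lists were chosen with earlier results of these data known. Genes were named by a rule: all 9 members, in each neighbouring group up to 3 genes with the smallest p, MYC and MAX, and for ODC1 and the member with the smallest p the 3 protein-coding genes of at least 100 counts most correlated with it. Limits given for 0 reads cover counting error only, because no molecular identifiers are stated and PCR copies are not independent.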

Additional observations from a re-analysis of the deposited data

How the results depend on the processing

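Of the 9 members, 6 passed in limma, and 3 to 6 when 1 library was left out, the lowest without CDO1 replicate 1. The 6 without mock replicate 3 were not the same 6. There ODC1 did not pass (adjusted p = 0.0718 in limma) and SRM did (0.0333). Of the 46 neighbouring genes tested, 16 passed, 11 to 18 when 1 library was left out and 8 at an adjusted p of 0.01. The correlation of deviations between same-numbered libraries was 0.0777, 0.299 and 0.0862, positive but not over 0.1 in every pair, so the numbers were not taken as pairs; not every library correlated best with its own number. With the replicate number as a block, calls over all genes went from 5229 to 5918, neighbouring genes past the threshold from 16 to 20, with MYC (adjusted p = 0.0181 in limma) and SLC47A1 (0.0458) among them, and members past the threshold were again 6. Some values changed sign, and the cause was not tested. SRM, -0.11 as reported, was 0.0436 with the GC trend removed. MAT2B, 0.01 as reported, was -0.0153 with equal library totals and -0.0151 with the GC trend removed. With 1 library left out, MAT2B ran from -0.0212 to 0.0625 and MAX, 0.04 as reported, from -0.0055 to 0.0784. OAZ3, 0.15 as reported, then ran from -0.3155 to 0.4181. The log2 difference in the ratio of SMOX to PAOX, -0.26 as reported, ran from -0.4525 to 0.0033 with 1 library left out. That of SAT1 to PAOX, 0.01 as reported, ran from -0.122 to 0.2141, and was -0.0257 with a pseudocount of 5. OAZ3 and PAOX had low counts, and the part of depth in their wide ranges was not tested. All alternatives kept the direction of the 6 called members, and AZIN1, SAT1 and SMOX passed in all 18.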

Other observations

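Among 10543 protein-coding genes with a mean of at least 100 normalised counts, those whose log2 values were most like SMOX over the 6 libraries were SDC3, a cell surface proteoglycan (Pearson's r = 0.9984, log2 fold change -0.72), DYNLL2, a dynein light chain (0.9977, -0.24), and GADD45A, a stress-induced gene (0.9973, -0.36). Those most like ODC1 were DCAF16 (0.9973, -0.20), the small GTPase gene RAB12 (0.9962, -0.31) and INTS2 (0.9943, -0.28). With 6 libraries in 2 groups these correlations are a description and include the difference between the groups.

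Genes annotated over the members, or named as their pseudogenes, were assigned few reads. Because the read counter is not stated, these low counts cannot show how many reads of a member were shared or lost. The highest was MAILR, which overlaps AZIN1, at 8.27 normalised counts in its highest library, 0.230% of the lowest AZIN1 library. SNORA80B (within ODC1) and JSRP1 (overlapping OAZ1) reached 5.92 and 6.43, and the pseudogenes AMD1P3 and SRMP2 0.986 and 1.095.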
